A study of Rattus norvegicus with 12 samples.

Results

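Among genes of the Wnt pathway, 8 were followed in failing and control rat hearts, namely the secreted modulators Dkk3, Sfrp1, Sfrp2, Sfrp4, Frzb and Wif1 and the frizzled receptors Fzd1 and Fzd2. Every probe set that the array annotation pairs with exactly 1 of these symbols was taken, which gave 16 probe sets of 31042 on the array, for 8 of 14217 genes. Dkk3 had 4 of them, Sfrp1 had 3, and Sfrp2, Sfrp4 and Frzb had 2 each, with 1 each for Wif1, Fzd1 and Fzd2.

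Wnt proteins are secreted, lipid-modified signals that bind a frizzled receptor on the cell surface, with a low-density lipoprotein receptor-related protein as co-receptor for the branch that stabilises beta-catenin. Secreted frizzled-related proteins (the Sfrp genes and Frzb) carry a cysteine-rich domain like that of the frizzleds and can bind Wnts outside the cell, and Wif1 encodes another secreted protein that binds Wnts. Dickkopf proteins act at the co-receptor, although Dkk3 is a divergent member of that family whose effect on Wnt signalling is less settled. In the adult heart these modulators are known chiefly from fibroblasts and other non-muscle cells and from studies of scar formation.

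Total RNA of whole heart tissue was measured on 1-colour 3' oligonucleotide arrays, 1 per heart, for 6 hearts in failure and 6 controls described in the labels as biological replicates. The study follows the passage from compensated hypertrophy to heart failure in the spontaneously hypertensive rat, an inbred strain with high blood pressure, and the comparison asks which transcripts differ once the heart fails. Neither the strain of the controls nor any age, sex or chamber is given in the sources used here, and no agent is named for either group. Failing hearts given captopril, alone or with butyrate, are also named in the labels and are not analysed here.

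The arrays had median intensities from 120.8 to 144.2. Cardiomyocyte markers were bright on every array: 10 of 11 were measured, all 10 among the brighter genes defined below. Their summed intensities ran from 268420 to 414246 in failing and from 260911 to 421172 in control hearts. The samples were taken as heart, as the tissue label says, although another label speaks of a cell line. These markers alone cannot tell tissue from cultured heart muscle cells. Summed atrial markers (5 of 5 measured) were highest in control replicate 3 at 18809.8 and in failing replicate 5 at 7379, against 782.9 to 2452.8 in the other hearts. On the first principal component, failing replicate 5 (7.25) and control replicate 4 (-13.5) lay on the side of the other group. Values without these hearts are given where they change a call or move a difference by over 1.5 times.

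Sequence just upstream of the genes was matched by symbol for Sfrp2, Frzb, Wif1 and Fzd1, 4 of the 8 genes, from RefSeq on build GRCr8, as windows of 300 bases running from 250 before to 50 after the gene start. Dkk3, Sfrp1, Sfrp4 and Fzd2 had no match. The windows of the 2 matched genes of the secreted frizzled-related family are shown because they differ in base composition and in the motif found. Capitals mark a match, on either strand, to any of 6 motifs: the TCF/LEF cores CTTTGA and CTTTGT, the TATA box TATAAA, the GC box GGGCGG, the AP-1 site TGANTCA and the E-box CAGCTG, none of which overlapped another here. The windows are Frzb, chr3:85772047-85772346 on the minus strand, and Sfrp2, chr2:171387286-171387585 on the plus strand, each written 5′ to 3′ along its gene.
Frzb: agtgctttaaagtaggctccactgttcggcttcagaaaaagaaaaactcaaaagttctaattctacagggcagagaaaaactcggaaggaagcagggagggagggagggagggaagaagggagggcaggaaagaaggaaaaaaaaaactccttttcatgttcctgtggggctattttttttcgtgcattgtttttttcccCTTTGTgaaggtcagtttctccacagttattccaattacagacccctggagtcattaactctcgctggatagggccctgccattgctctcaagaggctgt
Sfrp2: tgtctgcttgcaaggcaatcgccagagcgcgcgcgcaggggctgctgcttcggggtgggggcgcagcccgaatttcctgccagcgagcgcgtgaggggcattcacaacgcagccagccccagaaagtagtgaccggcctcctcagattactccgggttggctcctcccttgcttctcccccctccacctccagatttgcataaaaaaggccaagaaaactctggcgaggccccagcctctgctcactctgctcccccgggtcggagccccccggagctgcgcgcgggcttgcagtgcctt

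The Frzb window held 45.3% G and C with 4 CpG pairs, and the Sfrp2 window 65% with 21 CpG pairs, against medians of 52.3% and 7 over 27457 windows of the same length. Frzb had 1 match, to CTTTGT, which begins 50 bases before the gene start and is the core that TCF and LEF factors, the partners of beta-catenin on DNA, recognise; 18.3% of all windows hold it. Sfrp2 had no match to any of the 6. Wif1 (67% G and C) had 1 match to GGGCGG, found in 34.9% of windows, and Fzd1 (65.3%) had none. These are letter matches in 1 window and not measured sites.

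Dkk3 and Sfrp1 rose in failing hearts, Frzb lay higher without passing the threshold, and the intervals of the 2 frizzled receptors and Wif1 included 0. The brightest Dkk3 probe set was 2.66-fold higher, and the 3 Sfrp1 probe sets were 2.19-fold, 2.53-fold and 2.74-fold higher (n = 6 hearts per group). Sfrp2 and Sfrp4 scattered widely among the failing hearts and were not called. Differences are log2 intensity in failing minus control hearts from limma, a linear model with a spread shared across features, and a call means a Benjamini-Hochberg adjusted p below 0.05. Because dim probe sets vary far more (median SD within groups 1.08 against 0.28, log2), "rose" is used for probe sets called among the brighter 15521, those with a mean log2 intensity of at least 6.94 (intensity 122.6). That fit called 429 probe sets higher (2.76%) and 230 lower (1.48%). Over all 31042 probe sets limma called 0 higher and 0 lower (0% each), with 4495 at an unadjusted p under 0.05 (14.5%).

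Of the 16 probe sets, 11 were among the brighter ones, and 4 of these 11 were called higher and 0 lower, where 2.76% of all brighter probe sets were called higher. One of the 11, Dkk3 1394655_at, reached that level only through the failing hearts, and it was not called. At an unadjusted p under 0.05 by limma, 8 of the 11 brighter member probe sets were higher and 0 lower. Of all brighter probe sets 13.2% were higher and 12% lower at that level. Without Dkk3 1394655_at the member count was 7 of 10. The 8 probe sets belong to Dkk3, Sfrp1 and Frzb only, and the 4 called ones to 2 genes, Dkk3 and Sfrp1. Probe sets of 1 gene are not independent, so these counts are not counts of genes. The mean of the failing hearts lay above that of the controls for 15 of 16 probe sets, and the median difference was 0.65 (log2), against -0.024 over all probe sets. Dim ones among the 15 belong to Dkk3, Sfrp2, Sfrp4 and Wif1, and the sign of those of Sfrp2 and Wif1 changed without certain single hearts. Among the brighter ones, the intervals of Sfrp2, Fzd1 and Fzd2 included 0. With limma's variance trend, which lets the spread depend on brightness, the fit over all 31042 probe sets called the same 4 members, at adjusted p of 0.0089 for Dkk3 and from 0.0232 to 0.0386 for Sfrp1, with 1.22% of all probe sets called higher.

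**Figure D1:**
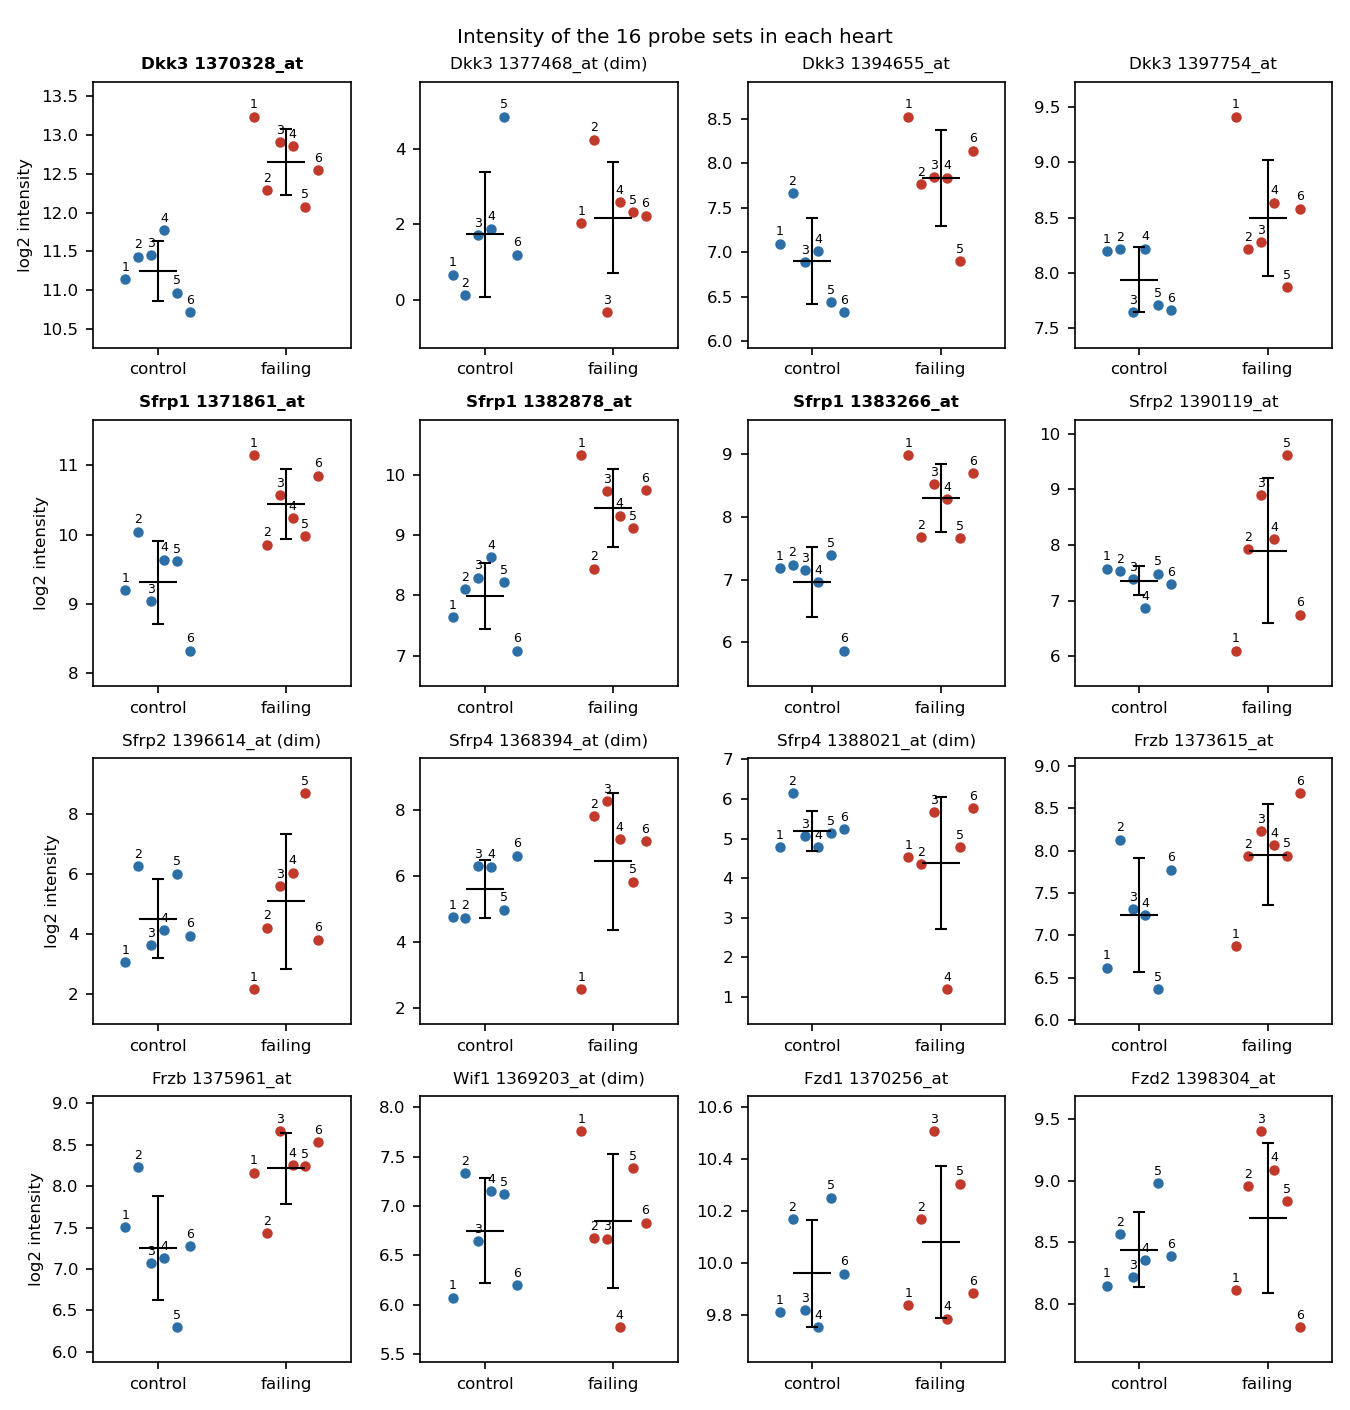
Log2 intensity of each of the 16 probe sets in control (blue) and failing (red) hearts, with points numbered by replicate and black bars giving the mean and SD of 6 hearts. Each panel has its own vertical scale, bold titles mark the 4 probe sets called higher, and dim ones lie below the brightness threshold. All failing hearts lie above all controls in 2 panels, Dkk3 1370328_at and Sfrp1 1383266_at, as in 0.989% of all probe sets.

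Dkk3, the secreted dickkopf family member, was measured best by probe set 1370328_at. Its intensity ran from 4310.9 (replicate 5) to 9662.6 (replicate 1) in failing hearts with a median of 6722, and from 1673.4 (replicate 6) to 3501.9 (replicate 4) in controls with a median of 2506. The lowest failing heart was thus above the highest control, as in 0.989% of all probe sets and 1.78% of the brighter ones. On the log2 scale the groups stood at 12.65 ± 0.43 and 11.24 ± 0.38 (SD, n = 6 each), a difference of 1.41 ± 0.22 (SE; 95% interval 0.95 to 1.87; limma adjusted p = 0.0168 among the brighter probe sets and 0.1 over all). The call held whichever 1 heart was left out (difference from 1.29 to 1.53, limma adjusted p from 0.0034 to 0.0432), and the difference was 1.63 without control replicate 4 and failing replicate 5 together.

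The other Dkk3 probe sets showed smaller differences that were not called. Probe set 1394655_at ran from 119.6 to 368 in failing hearts with a median of 229.4, and from 80.2 to 202.9 in controls with a median of 123.8. Its groups overlapped through failing replicate 5, the lowest failing heart here too, and the difference was 0.93 ± 0.26 (limma adjusted p = 0.0585). It was called without failing replicate 5 or control replicate 4 (lowest adjusted p = 0.0145). Probe set 1397754_at, from 234.5 to 682.2 in failing and from 199.7 to 297.9 in control hearts, gave 0.56 ± 0.22 (limma adjusted p = 0.142). It was called without control replicate 4 and failing replicate 5 together (0.74, limma adjusted p = 0.0394). Failing replicate 1 was the highest heart in all 3 of these probe sets. The fourth, 1377468_at, lay at intensities from 0.8 to 28.7 in both groups, at the bottom of the scale, and gives no usable difference. Which part of the transcript each probe set covers is not given in the sources used here.

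Sfrp1, a secreted frizzled-related protein, rose in all 3 of its probe sets. Probe set 1371861_at ran from 925.3 (replicate 2) to 2266 (replicate 1) in failing hearts with a median of 1362, and from 321 (replicate 6) to 1054.3 (replicate 2) in controls with a median of 685.1. Failing replicates 2 and 5 overlapped with control replicate 2, and the other 4 failing hearts lay above every control. The difference was 1.13 ± 0.28 (limma adjusted p = 0.0446).

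Probe set 1382878_at ran from 348.4 to 1287.7 in failing and from 135.5 to 397.2 in control hearts, and differed by 1.45 ± 0.31 (limma adjusted p = 0.029). Only failing replicate 2 and control replicate 4 overlapped there. Probe set 1383266_at ran from 202 to 507 in failing and from 58.4 to 167.7 in control hearts, with no overlap, and differed by 1.34 ± 0.28 (limma adjusted p = 0.029). In all 3 probe sets failing replicate 1 was the highest heart, failing replicate 6 the second highest, and control replicate 6 the lowest.

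The Sfrp1 calls were less stable than the Dkk3 call. Leaving out failing replicate 3, 4 or 6 or control replicate 1 or 6 ended all 3 calls; leaving out control replicate 5 ended those of 1371861_at and 1382878_at, control replicate 2 that of 1382878_at, and failing replicate 1 or control replicate 3 that of 1371861_at. The limma adjusted p in these fits lay between 0.0507 and 0.0981, and the differences over all fits without 1 heart stayed between 0.93 and 1.66. Higher calls among all brighter probe sets, 429 with every heart kept, were 36, 52 and 68 without failing replicate 3, 4 and 6. They were 37 and 20 without control replicate 1 and 6. Without control replicate 4 and failing replicate 5 together, the 3 Sfrp1 differences were 1.29, 1.65 and 1.47 and all were called (limma adjusted p from 0.0076 to 0.0173). A brightness minimum of 500 ended the calls of 1382878_at and 1383266_at (limma adjusted p = 0.132 each), and a minimum of 100 that of 1371861_at (0.0509). By the mean of each gene's probe sets, Sfrp1 was called (1.31, limma adjusted p = 0.0216) and Dkk3 was not (0.83, limma adjusted p = 0.123).

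Frzb, also called secreted frizzled-related protein 3, lay higher in failing hearts by an amount that did not pass. Probe set 1375961_at ran from 173.1 (replicate 2) to 404.8 (replicate 3) in failing hearts with a median of 304.5, and from 78.5 (replicate 5) to 300.9 (replicate 2) in controls with a median of 147.3. Of the failing hearts 4 were above every control, 4 controls were below every failing heart, and the difference was 0.96 ± 0.28 (95% interval 0.37 to 1.56; limma adjusted p = 0.0603). It was called without failing replicate 2 or control replicate 2 (lowest adjusted p = 0.046), and with the variance trend (adjusted p = 0.0496). Probe set 1373615_at, from 117.1 to 408.8 in failing and from 82.7 to 279.6 in control hearts, gave 0.71 ± 0.32 (limma adjusted p = 0.185). The 2 Frzb probe sets placed failing replicate 1 differently, above every control except replicate 2 in 1375961_at and below 4 of 6 controls in 1373615_at.

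**Figure D2:**
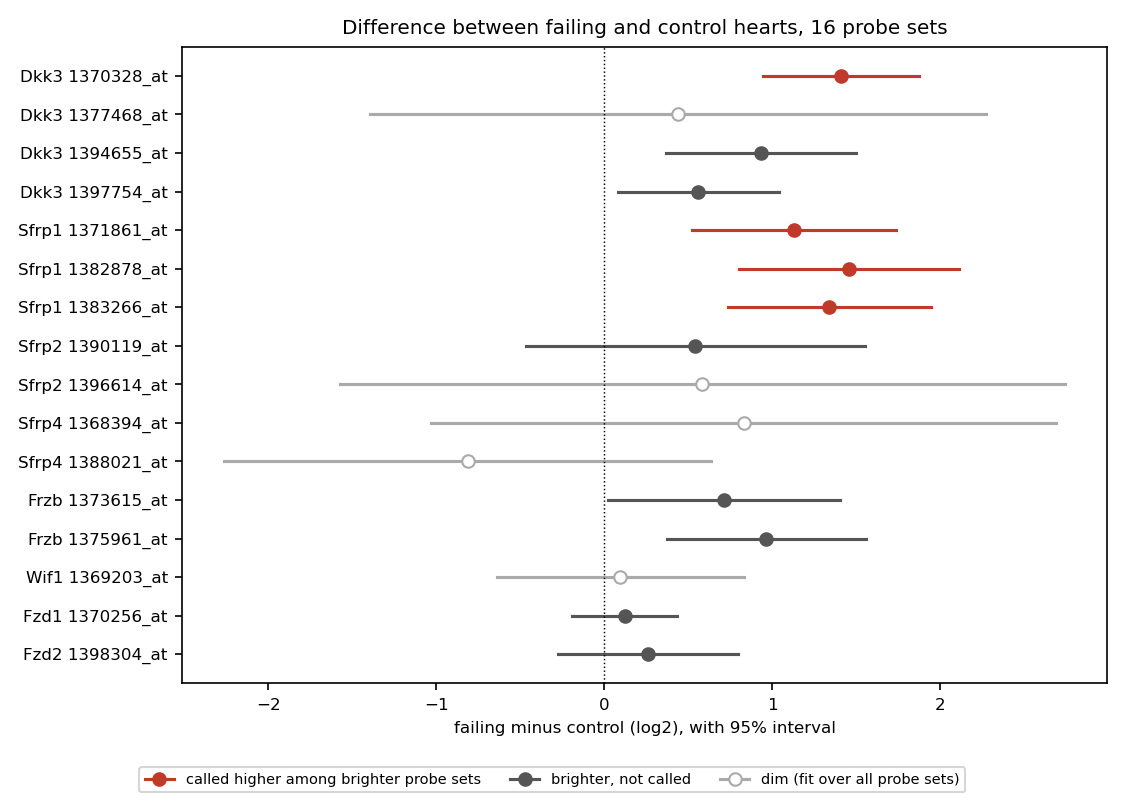
Failing minus control difference in log2 intensity with its 95% interval from limma for the 16 probe sets, 6 hearts per group. Red marks the 4 called probe sets and dark grey the other 7 brighter ones, while open points are the 5 dim ones, from the fit over all probe sets. The interval of Fzd1 is the narrowest, from -0.19 to 0.43.

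Sfrp2 spread over a wide range in failing hearts. In probe set 1390119_at the controls lay between 117 and 191 (7.36 ± 0.26, log2), whereas failing hearts stood at 68.8, 243.2, 475.4, 275.3, 785.3 and 107.6 in replicates 1 to 6 (7.90 ± 1.31). Of these, 4 were above every control, and replicates 1 and 6 below every control. The difference of 0.54 ± 0.47 was not called (95% interval -0.47 to 1.55; limma adjusted p = 0.498). It was 0.20 without failing replicate 5, 0.90 without failing replicate 1 and 0.10 without control replicate 4 and failing replicate 5 together, none of them called. The second probe set, 1396614_at, was dim, with a range of 4.5 to 417.5 among failing hearts and 8.4 to 76.6 among controls, and it too had failing replicate 5 highest and failing replicate 1 lowest. Its difference, 0.58 ± 0.99, was -0.14 without failing replicate 5.

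Sfrp4 was dim in both probe sets. Probe set 1368394_at stood at 6, 224, 307.3, 137.8, 56.8 and 132.9 in failing replicates 1 to 6 and between 26.7 and 97.9 in controls. Of these, 4 exceeded every control, replicate 5 lay among the controls, and replicate 1 was the lowest heart of all; the difference was 0.83 ± 0.85 (limma adjusted p = 0.697 over all probe sets), and 1.60 without failing replicate 1, where it still did not pass (adjusted p = 0.237). Probe set 1388021_at, from 2.3 to 54.2 in failing and from 27.5 to 70.8 in control hearts, went the other way at -0.81 ± 0.66 (limma adjusted p = 0.611), and at -0.18 without failing replicate 4.

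Wif1, the Wnt inhibitory factor, was near the brightness threshold, with 54.7 to 216.1 in failing and 67.3 to 161 in control hearts. The groups covered almost the same range, and the difference was 0.096 ± 0.34 (95% interval -0.64 to 0.83; limma adjusted p = 0.925 over all probe sets). Its sign changed without any 1 of 4 hearts.

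The frizzled receptors, which receive the Wnt signal, showed no call. Fzd1 (1370256_at) ran from 883.9 to 1454.5 in failing hearts with a median of 1048, and from 864 to 1219.7 in controls with a median of 949.9. The groups overlapped over most of their range, with 0.12 ± 0.15 between them (95% interval -0.19 to 0.43, or 0.874-fold to 1.35-fold; limma adjusted p = 0.639), and 0.036 without failing replicate 3, 0.076 without failing replicate 5, 0.079 without control replicate 4 and 0.034 without both of the latter. Fzd2 (1398304_at) ran from 224.4 (replicate 6) to 675.4 (replicate 3) in failing and from 283.4 to 504.6 in control hearts. Failing replicates 1 and 6 were below every control and replicates 3 and 4 above, and the difference was 0.26 ± 0.25 (95% interval -0.28 to 0.79; limma adjusted p = 0.548), and 0.12 without failing replicate 3 and 0.44 without failing replicate 6, with no call.

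The members did not rank the failing hearts alike. Failing replicate 1 was highest for Dkk3, Sfrp1 and Wif1 and lowest for Sfrp2 and Sfrp4, at 1.99 above the control mean for Dkk3 and at -3.03 relative to it for Sfrp4 (log2, brightest probe set of each gene). Among failing hearts, replicate 5 was lowest for Dkk3 (0.83 above the control mean) and highest for Sfrp2 (2.26 above). Failing replicate 3 was above the control mean for every gene but Wif1 (-0.083). With group means subtracted, Dkk3 and Sfrp1 had the second strongest positive correlation over the 12 hearts, Pearson r = 0.69 (permutation p = 0.0219, adjusted p = 0.32 over 28 pairs) and a Spearman correlation of 0.62 (permutation p = 0.0469, adjusted p = 0.42). Without failing replicate 5 and control replicate 6, r was 0.48. Sfrp2 and Fzd2 had r = 0.70 (permutation p = 0.0686, adjusted p = 0.32; Spearman correlation 0.60, permutation p = 0.0893, adjusted p = 0.42), and 0.82 without failing replicates 1 and 5. None of the 28 pairs passed the correction.

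**Figure D3:**
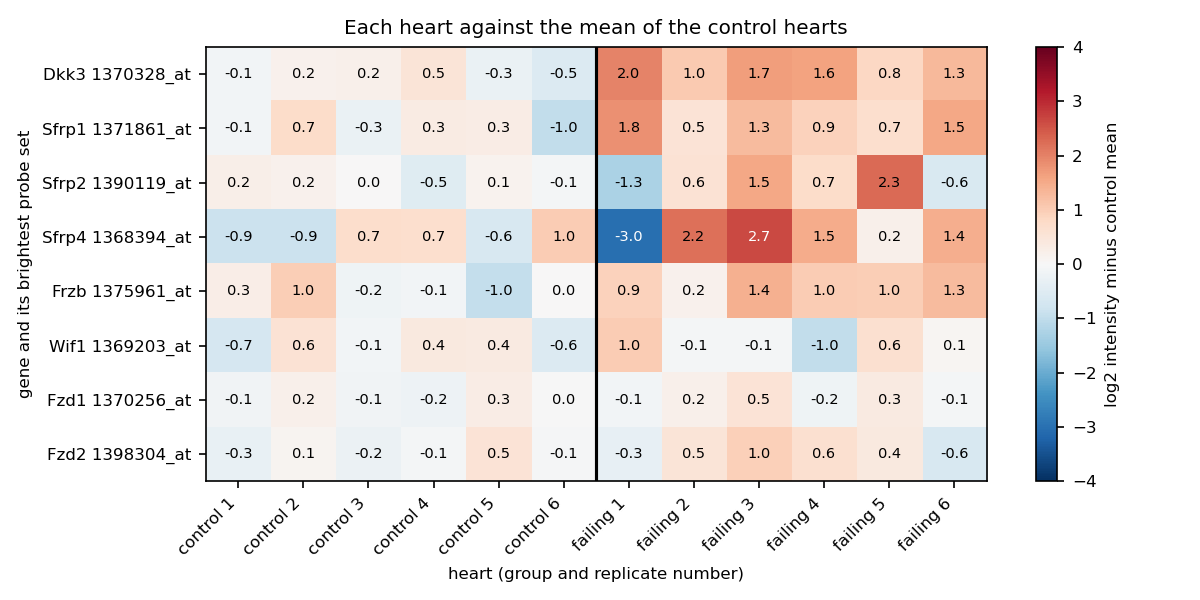
Log2 intensity of the brightest probe set of each of the 8 genes in each heart, minus the mean of the 6 control hearts, with red above and blue below it. The Dkk3 and Sfrp1 rows are red in all failing hearts, from 0.83 to 1.99 and from 0.54 to 1.84, while the Sfrp2 and Sfrp4 rows turn blue in failing replicate 1.

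Genes whose pattern was most like that of a called member were sought among 12453 brighter probe sets with a settled gene symbol, by Pearson correlation over the 12 hearts with group means subtracted, as a description. All arrays share 1 scaling, so such values can also follow the array. The highest of so many values over 12 hearts can also be large by chance. Nearest to Dkk3 1370328_at were Tbc1d23 (0.91), Tmem59 (0.90), Ccni (0.90), Plb1 (0.89) and Ncoa6 (0.87). Of these, Tmem59 (0.57, limma adjusted p = 0.0302) and Plb1 (1.29, limma adjusted p = 0.0273) also rose in failing hearts. Of all brighter probe sets 2.76% were called higher. Nearest to Sfrp1 1371861_at were Gpatch8, Ppp1r12a, Kcnmb4, Plekha3 and Synpo2 (0.90 to 0.91). For Sfrp1 1382878_at they were Tprkb, Senp6, Trim41, Ogfr and Eny2 (0.86 to 0.91), and for 1383266_at Tars1, Nt5c2, Aldoc, Scaf11 and again Ogfr (0.90 to 0.96). None of the genes nearest to a Sfrp1 probe set was called.

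The rest of the pathway was called higher at about the share of all brighter probe sets. The 7 other lists held 133 symbols, a few of them older names of a listed gene. From these, 104 genes were measured by 188 probe sets. Of their 108 brighter probe sets, 3 were called higher and 0 lower, beside 2.76% and 1.48% of all brighter probe sets. Wnt ligands were dim: 13 of 19 were measured and 3 were among the brighter genes, with 0 calls. Among the brighter probe sets, Wnt2b had the lowest p (-0.38 ± 0.16, limma adjusted p = 0.167). Genes of Wnt secretion and R-spondin signalling (8 of 11 measured, 4 brighter) had 0 calls. Nearest among the brighter probe sets there was Wls, the carrier that brings Wnts to the cell surface. It differed by 0.38 ± 0.11 (limma adjusted p = 0.0667), with 5 of 6 failing hearts above every control. Other receptors and co-receptors (10 of 16 measured, 6 brighter) had 0 calls. A probe set of Ryk, a receptor-like kinase that binds Wnts, had the lowest p among the brighter ones there (0.24 ± 0.13, limma adjusted p = 0.264). The other Ryk probe set, also among the brighter ones, gave -0.032 (limma adjusted p = 0.896). Of 9 other secreted inhibitors 4 were measured, Dkk2, Sfrp5, Sost and Sostdc1, all of them dim.

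Inside the cell, 34 symbols were listed for the beta-catenin pathway, with Tle5 also under its older name Aes. From these, 29 genes were measured and 27 were brighter, with 1 gene called. Btrc, which encodes the ubiquitin ligase subunit that marks beta-catenin for destruction, ran from 92.3 to 228.5 in controls and rose by 1.01 ± 0.22 in 1391694_at (limma adjusted p = 0.0324), while 2 further probe sets of it gave 0.37 and 0.49 with no call. For target genes of beta-catenin 19 symbols were listed, with Ccn4 and Ccn5 also under the older names Wisp1 and Wisp2. There 16 genes were measured, 10 were brighter and 0 were called, Cd44 being nearest among brighter probe sets (0.86 ± 0.25, limma adjusted p = 0.0588). In the planar polarity and calcium branch, 24 of 25 genes were measured and 19 brighter. Prickle2, a cytoplasmic planar polarity protein, rose by 0.75 ± 0.15 (limma adjusted p = 0.0276) and Rock2, a protein kinase of the cytoskeleton, by 0.38 ± 0.10 (limma adjusted p = 0.0465). In both, all failing hearts lay above all controls, as in 1.78% of all brighter probe sets. All 3 calls were lost when any 1 of failing replicates 3, 4 and 6 or of control replicates 1 and 6 was left out, that of Btrc also without control replicate 2 or 5, and that of Rock2 also when failing replicate 1 or 2, or 1 of control replicates 2, 3 and 5, was left out (limma adjusted p from 0.0568 to 0.102). Calls also ended with a brightness minimum of 500 for Btrc and Prickle2 (limma adjusted p = 0.141 and 0.129), and with a minimum of 100 and median centring for Rock2 (0.0529 and 0.0574).

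**Figure D4:**
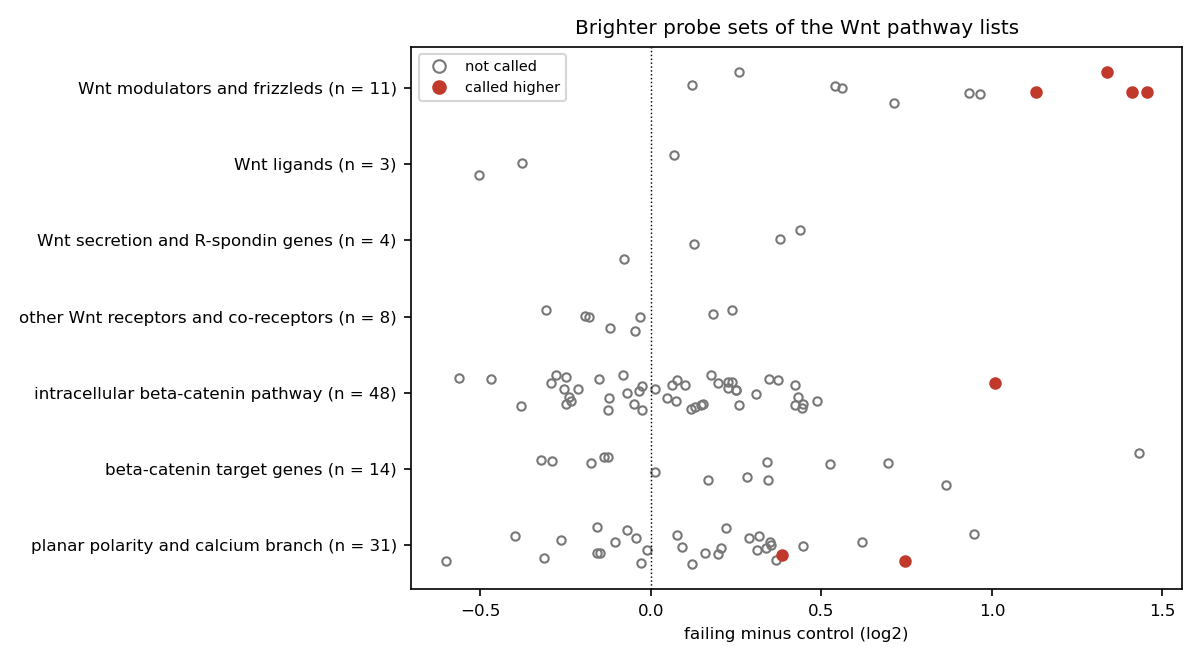
Failing minus control difference in log2 intensity for each brighter probe set of the 8 genes and of 6 other Wnt pathway lists, n giving the number of probe sets. Filled red points were called higher and open points were not. A further list, other secreted inhibitors, is missing because all its probe sets were dim. The 4 called members lie between 1.13 and 1.45.

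Fibroblast, activated fibroblast and macrophage markers included genes that rose in failing hearts. Fibroblast markers, 12 of 12 measured and none of them dim, summed to between 91321.6 and 147232 in failing and between 65197.9 and 91200.6 in control hearts, and 4 of the 12 genes rose (Dpt, Vim, Dcn and Pi16). Of the defining fibroblast markers, Pdgfra (0.35, limma adjusted p = 0.238) and Tcf21 (0.47, limma adjusted p = 0.117) were not called. Activated fibroblast markers, 8 of 8 measured, summed to between 16339.9 and 46439.8 in failing and between 7000 and 15361 in control hearts, and 5 of 8 rose (Thbs4, Postn, Fn1, Ltbp2 and Comp). Acta2, Cthrc1 and Tnc were not called, 1 of them being dim. Macrophage markers, 10 of 10 measured, ran from 10632.4 to 30658 against 7703.2 to 13998.8, with 4 of 10 called higher. Counted by brighter probe set, 4 of 16 fibroblast, 5 of 7 activated fibroblast and 4 of 10 macrophage ones were called higher. Of all brighter probe sets 2.76% were. In whole tissue, more cells of a type and more RNA per cell cannot be told apart, and the part of these cells in the Dkk3 and Sfrp1 results was not tested. Among the failing hearts, replicate 5, the lowest for Dkk3, was also lowest in the fibroblast (91321.6), activated fibroblast (16339.9) and macrophage (10632.4) sums. Replicate 3, the second highest for Dkk3, had the highest fibroblast sum (147231.5), and replicate 1, the highest for Dkk3 and Sfrp1, the second lowest (98634.6).

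Epicardial and mesothelial markers (7 of 8 measured) covered 731.9 to 865.5 in failing and 637.2 to 976.8 in control hearts, and endothelial markers (7 of 8) 12783.8 to 17111.2 and 11571.1 to 14688.6, so both sums overlapped between the groups. The epicardial list had 0 calls, while in the endothelial list Vwf, the von Willebrand factor gene, rose by 1.10 ± 0.22 (limma adjusted p = 0.0276) and Emcn fell by 0.78 ± 0.19 (limma adjusted p = 0.0419). Smooth muscle and pericyte markers (8 of 8) summed to 5365.5 to 10309.1 and 5082 to 6525.4, and nerve markers (3 of 6) to 3453.6 to 4260.2 and 1472.4 to 4016.1, with 0 calls in either list. Lymphocyte markers (7 of 9) and adipocyte markers (4 of 5) were all dim, with sums of 131.8 to 366.8 and 28.3 to 118 in failing hearts against 239.2 to 597.8 and 53 to 165.8 in controls. The 3' minus 5' difference of the Gapdh and beta-actin control probe sets, a sign of RNA quality, ran from 0.50 to 0.70 in failing and from 0.36 to 0.78 in control hearts (log2). With it as a covariate the Dkk3 difference was 1.41 and the Sfrp1 differences 1.16, 1.46 and 1.37, all called (limma adjusted p from 0.0171 to 0.0293). Without control replicate 3 and failing replicate 5, the hearts highest in atrial markers, the Dkk3 difference was 1.57 (limma adjusted p = 0.008), and 2 of 3 Sfrp1 probe sets were called.

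**Figure D5:**
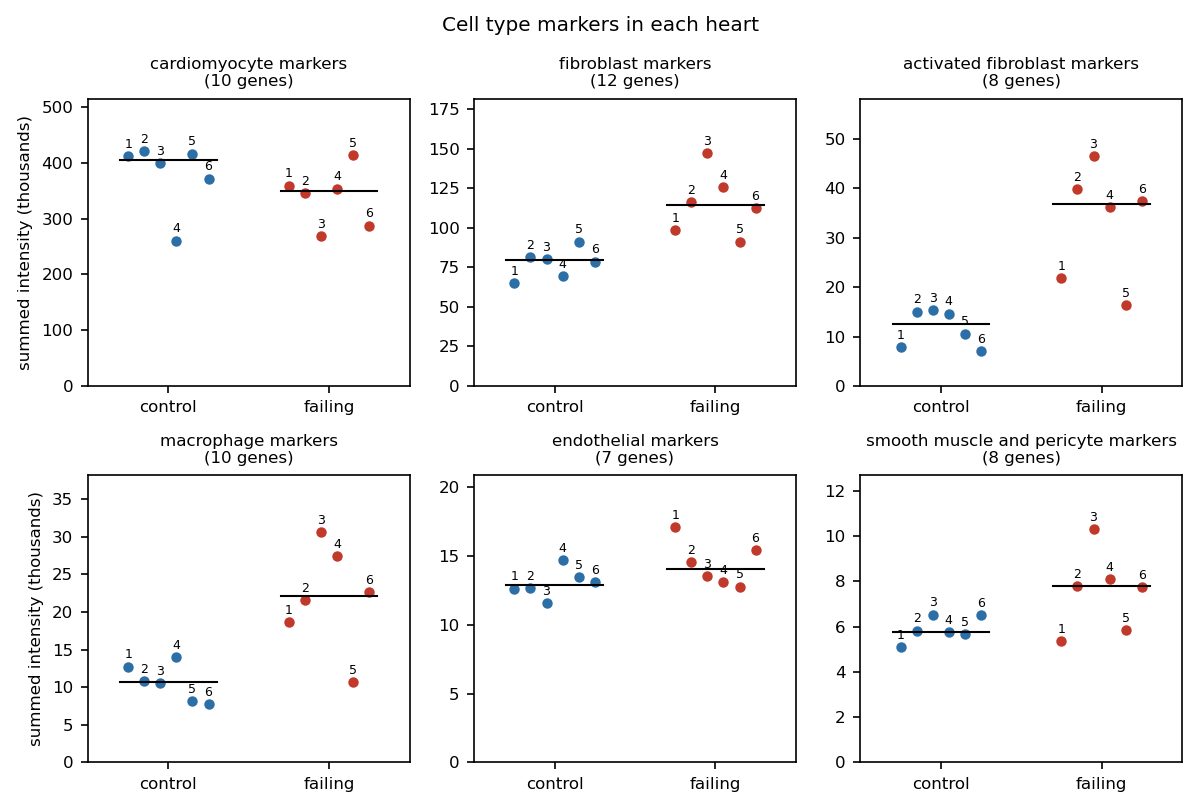
Summed intensity of 6 sets of cell type markers in each control (blue) and failing (red) heart, each gene by its brightest probe set, with points numbered by replicate and a line at the median of 6. Fibroblast sums of the groups nearly touch, at 91321.6 in the lowest failing and 91200.6 in the highest control heart. For activated fibroblast sums these values are 16339.9 and 15361. The other sums overlap.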

How the data were processed

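The authors deposited 1 table of linear intensity values per probe set and array. RMA is named without a version in the submitters' processing notes, yet the values are not logged and their mean, after trimming 2% at each end, was 500.19 to 500.23 on every array. The summary method therefore stays unknown, and a shift of most genes one way would not be seen. Here log2 was taken with no offset, 57 control probe sets were left out, and 31042 remained: 20826 with 1 gene symbol, 436 with several and 9780 with none listed. The group difference was fitted in limma 3.58.1 (R 4.3.3, group as the only term, two-sided), over all probe sets and among those at or above the median mean log2 intensity. Simulated data were used to test the fits, and matplotlib 3.10.9 drew the figures. Depth does not apply to arrays, whose number limits the precision.

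The members, lists, tests and the use of the brighter fit for calls were chosen with earlier results of these data known. Named were all member probe sets; in each pathway list the called genes (up to 4 a direction) or the lowest p among brighter probe sets; and the 5 genes most like each called member. Lists of cardiomyocyte, atrial, fibroblast, activated fibroblast, epicardial, endothelial, smooth muscle, macrophage, lymphocyte, adipocyte and nerve markers were summed over each gene's brightest probe set. Replicate numbers are shared between groups, but deviations of same-numbered hearts correlated at -0.060 to 0.23, so they were not taken as pairs.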

Additional observations from a re-analysis of the deposited data

Results flagged for a closer look

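Of 32 sets of 6 values, 4 had 1 heart far from the other 5, with a gap taking up most of the group's range; chance alone flags about 1 in 20 such groups, or 1.6 of 32. Control replicate 6 was far below the other controls in Sfrp1 1383266_at, at an intensity of 58.4 against 124.3 for the next (gap 0.716 of the range). This probe set was among those called, at 1.34 ± 0.28. Without that heart its difference was 1.12 ± 0.23 and was not called (limma adjusted p = 0.0624). That fit called 20 brighter probe sets higher in all, against 429 with every heart kept. The other 3 were dim probe sets: Dkk3 1377468_at in control replicate 5 (28.7 against 3.7, gap 0.628), Sfrp4 1388021_at in failing replicate 4 (2.3 against 20.4, gap 0.691) and Sfrp4 1388021_at in control replicate 2 (70.8 against 37.9, gap 0.661).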

How the results depend on the processing

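The 4 member calls stood at 4 with robust variance, quantile normalization, median centring and an offset of 32, and at 3 to 6 under the other alternatives not named next. They were 2 with a brightness minimum of 500, 2 of 8 genes by the brightest probe set, 1 by the mean of a gene's probe sets (Sfrp1; Dkk3 0.83, limma adjusted p = 0.123), 1 with the replicate block (Dkk3, adjusted p = 0.0324; Sfrp1 0.0557 to 0.0957; Prickle2 0.0508 and Rock2 0.0911 were not called either), and 0 by the exact rank-sum permutation test. The latter called 0 brighter probe sets higher and 0 lower, with 3398 at an unadjusted p under 0.05, and gave adjusted p from 0.0825 to 0.109 for the 4 members and for Btrc, Prickle2 and Rock2, all not called; its smallest p is 0.00216. Without 1 heart the member calls ran from 1 to 5.

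Over all probe sets, calls were 380 higher and 186 lower with the variance trend, 35 and 11 with an offset of 32, 391 and 423 without both control replicate 4 and failing replicate 5, 1 and 2 without both control replicate 3 and failing replicate 5 (chosen after seeing the data), and 0 to 120 higher and 0 to 40 lower without 1 heart, most without failing replicate 5. Among brighter probe sets, lower calls were 405 with the minimum of 500 and 419 with the variance trend. Array weights gave 1203 higher and 1067 lower, the replicate block 222 and 59, leaving out both control replicate 4 and failing replicate 5 gave 1443 and 1521, and leaving out 1 heart 20 to 1032 and 4 to 1046, from control replicate 6 to control replicate 4. Median centring gave 395 and 136 (74.4% higher, against 65.1% as reported). The causes were not tested.

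Reversed differences concerned dim probe sets: Sfrp2 1396614_at (-0.21 without both control replicate 4 and failing replicate 5, -0.31 without both control replicate 3 and failing replicate 5, and -0.14 to 1.17 without 1 heart) and Wif1 (-0.033 without both control replicate 3 and failing replicate 5, and -0.085 to 0.31 without 1 heart). Linear values near the bottom of the scale spread widely after log2, which limits what Sfrp4 and the dim Wnt ligands can show. Wif1 lay just below the brightness threshold. Its SD was 0.68 in failing and 0.53 in control hearts, near the 0.65 and 0.55 of Sfrp1 1382878_at.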
